A study of Mus musculus with 24 samples.

Results

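The genes described here make prostaglandins, thromboxane and leukotrienes, lipid signals built from arachidonic acid. They are 10 genes chosen by name: Pla2g4a, Ptgs1, Ptgs2, Ptges, Ptges2, Ptges3, Hpgds, Tbxas1, Alox5 and Alox5ap. The array held 27821 gene names, of which 15095 passed a filter on dim signal and were tested, and all 10 genes were among these. They were read by 17 probes, of which 16 passed; the remaining Tbxas1 probe was well above background on 1 of 24 arrays. Hpgds stands in the files under the older name Ptgds2.

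Gene expression was measured on one-colour Agilent arrays in RAW264.7 cells, a mouse macrophage-like line. By the sample titles, one line overexpressed Tbc1d23 and the other chloramphenicol acetyltransferase (CAT), each from a construct. CAT is a bacterial enzyme that served as the control. Both lines were grown in the same serum-containing medium with G418, the drug that selects for the construct. Cells of each line were exposed to 20 ng/ml lipopolysaccharide (LPS), a bacterial wall component that activates macrophages, for 1, 3 or 5 h, or were left unexposed (0 h). That gave 8 groups of 3 arrays. There was 1 line per construct, so an effect of Tbc1d23 and any other difference between the lines cannot be told apart. The labels do not name the promoter of either construct, say whether a line was a clone or a pool, or say that replicates came from separate cultures. The p-values thus reflect the scatter among the deposited arrays, some or all of which may be technical.

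As background, the cytosolic phospholipase A2 encoded by Pla2g4a frees arachidonic acid from membranes. The cyclooxygenases COX-1 (Ptgs1) and COX-2 (Ptgs2) turn it into prostaglandin H2, which terminal synthases convert to prostaglandin E2 (Ptges, Ptges2, Ptges3), prostaglandin D2 (Hpgds) or thromboxane A2 (Tbxas1). In the other branch, 5-lipoxygenase (Alox5) with its partner protein (Alox5ap) makes the first leukotriene. In macrophages COX-2 and the microsomal synthase Ptges are known as enzymes that bacterial products induce, while COX-1 is known as a constitutive enzyme.

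Levels are given as the log2 signal of a probe relative to the 75th percentile of its array, so that 0 is the level of that percentile. Levels are compared only within a probe. Between 42.05% and 69.54% of the probes on an array were well above background, and arrays of a group correlated at 0.967 to 0.993 across gene names. Both extremes of that share fell in the unexposed Tbc1d23 group (replicate 1 at 69.54%, replicate 2 at 42.05%, replicate 3 at 57.52%). That group enters every resting difference, every Tbc1d23 response and every difference in response. Of 10 macrophage markers, at least 9 were above background on all arrays of every group. Of each of 6 lists for mast cells, neutrophils, T and NK cells, B cells, megakaryocytes and fibroblasts, at most 2 genes were. The macrophage markers differed in level, with a median log2 difference (Tbc1d23 minus CAT) of -0.60 at 0 h. Adgre1 stood at 6.24 in the CAT line and 3.57 in the Tbc1d23 line, and Cx3cr1 at 3.85 and 0.05. Itgam (-0.14 and 0.62) and Cd14 (6.64 and 7.52) went the other way. Each slide held 1 replicate of 1 line with its 4 times, and a time always had the same position on the slide, so time and position cannot be told apart. The 3 slides of the CAT line and the slide of Tbc1d23 replicate 3 had consecutive barcode numbers, here called 1 slide run. The slides of Tbc1d23 replicates 1 and 2 formed another. These runs were inferred from the barcode numbers alone and are not a recorded batch. Differences between the lines are therefore also given within the run that holds both lines, where the single Tbc1d23 array is assumed to vary like the other groups. The array's probe for Tbc1d23 itself did not pass the test between the lines at any time (log2 difference 0.03 at 0 h, limma adjusted p = 0.923). Whether the construct carries the stretch this probe reads is not stated, so the probe does not check the labels.

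The resting lines differed in most of these genes. At 0 h 8 of the 10 passed the test (limma, Benjamini-Hochberg adjusted p under 0.05 over all 15095 gene names), against 45.3% of all gene names (25.2% higher and 20.0% lower in the Tbc1d23 line). Ptgs2, Ptges, Ptgs1, Alox5 and Pla2g4a were higher in the Tbc1d23 line, and Tbxas1, Ptges2 and Alox5ap were lower. In the main fit, which does not pair arrays by slide, LPS raised Ptgs2, Ptges and Ptges3 in the CAT line and lowered 6 of the others by 5 h. In the Tbc1d23 line that fit had LPS raising Ptgs2 and Ptges by less, and lowering Hpgds. With arrays of 1 slide paired, Ptges3 also rose there at 5 h (limma adjusted p = 0.00773). Ptges2 and Pla2g4a also fell (limma adjusted p = 0.00801 and 0.00191).

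**Figure D1:**
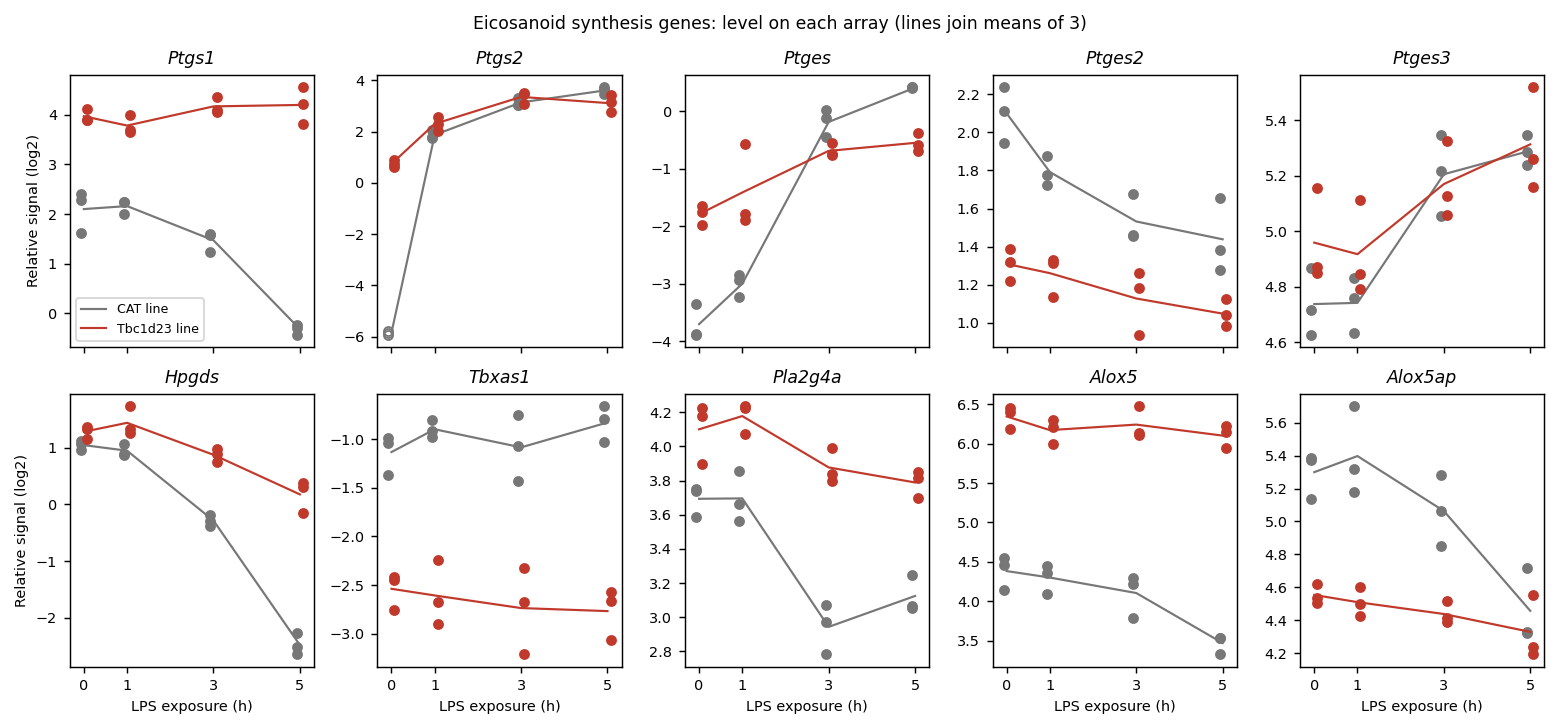
Level of each of the 10 genes on each of the 24 arrays (log2 signal relative to the 75th percentile of the array) against hours of LPS exposure, grey for the CAT line and red for the Tbc1d23 line. Points are arrays, lines join the means of 3, and open points are not well above background. Ptgs2 at 0 h lies between -5.92 and -5.77 on the CAT arrays and between 0.63 and 0.87 on the Tbc1d23 arrays.

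Ptgs2 showed the widest span of levels and is shown first with the stretch upstream of its gene. The sequences are from RefSeq (build GRCm38.p6), whose table held a promoter for 9 of the 10 genes, Alox5ap being the exception. They run 5′ to 3′ on the gene's strand, over the 250 bases before the gene start. Ptgs2 and Ptges rose with LPS and Ptgs1 fell in the CAT line, so these 3 are shown side by side. Capitals mark matches, on either strand, to 6 motifs searched: C/EBP (TTGCGCAA), the core of the cyclic AMP response element (TGACGT), the E box (CACGTG), AP-1 (TGACTCA), the GC box (GGGCGG) and the TATA box (TATAAA).
Ptgs2, chr1:150099781-150100030, plus strand: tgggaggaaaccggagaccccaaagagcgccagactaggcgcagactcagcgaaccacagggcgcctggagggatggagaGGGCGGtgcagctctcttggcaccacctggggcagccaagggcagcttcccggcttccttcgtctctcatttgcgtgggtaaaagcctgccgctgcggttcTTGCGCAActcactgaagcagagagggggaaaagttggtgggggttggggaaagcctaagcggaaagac
Ptgs2, site after the gene start, chr1:150100037-150100058, plus strand: accactACGTCACGTGgagtcc
Ptges, chr2:30903298-30903547, minus strand: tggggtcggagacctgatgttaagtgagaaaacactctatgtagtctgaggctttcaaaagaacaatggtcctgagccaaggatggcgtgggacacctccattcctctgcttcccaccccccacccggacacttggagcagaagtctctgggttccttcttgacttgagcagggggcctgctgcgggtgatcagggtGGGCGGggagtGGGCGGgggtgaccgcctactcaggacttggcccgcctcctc
Ptgs1, chr2:36230176-36230425, plus strand: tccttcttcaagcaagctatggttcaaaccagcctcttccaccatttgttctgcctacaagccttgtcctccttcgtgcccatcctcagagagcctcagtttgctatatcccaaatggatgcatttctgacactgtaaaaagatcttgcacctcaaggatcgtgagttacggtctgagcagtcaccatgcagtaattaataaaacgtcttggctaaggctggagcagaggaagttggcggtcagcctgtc

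In the Ptgs2 window a GC box began at base -170 and the full C/EBP palindrome at base -69 from the gene start. Just after the RefSeq start a response element core, at base 13, and an E box, at base 17, overlapped. All positions count from the RefSeq gene start, and the start used in these cells was not measured. Ptges held a pair of GC boxes at bases -53 and -42, and Ptgs1 held none of the 6 motifs. Among 32851 promoter windows of 300 bases (250 before and 50 from the start), 0.183% held the C/EBP letters, 7.51% the response element core, 7.15% the E box, 5.2% AP-1, 35.7% the GC box and 13.6% the TATA box. These are matches of letters, and binding was not measured.

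Ptgs2 encodes COX-2, the inducible cyclooxygenase. Its main probe, at chr1:151954744-151954803 (build mm9) and spotted 10 times, was not well above background on any CAT array at 0 h, where it read -5.92, -5.84 and -5.77. On the Tbc1d23 arrays at 0 h it read 0.72, 0.87 and 0.63. The groups did not overlap. The resting level was at least 40.7-fold higher in the Tbc1d23 line (means -5.84 and 0.74, limma adjusted p = 3.446e-15). That is an approximate bound, set against the dimmest signal that counted as above background. Within the run that holds both lines the log2 difference was 6.47 (adjusted p = 1.823e-08), close to the 6.58 over all arrays (SE 0.17). The other Ptgs2 probe gave 6.83 (adjusted p = 1.047e-15). With another background correction (normexp, which adds 50 to every signal and was chosen after seeing the data), the measured log2 difference was 2.55.

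LPS raised Ptgs2 within 1 h in both lines. In the CAT line it read 1.73, 1.80 and 2.08 at 1 h, 3.04, 3.05 and 3.32 at 3 h, and 3.46, 3.65 and 3.74 at 5 h. No exposed CAT array overlapped the unexposed ones, and the group means were above rest by at least 89.0-fold at 1 h, 214.4-fold at 3 h and 299.2-fold at 5 h (adjusted p = 1.147e-16, 8.697e-18 and 4.588e-18). Tbc1d23 arrays read 2.58, 2.29 and 2.03 at 1 h, 3.51, 3.48 and 3.06 at 3 h, and 3.43, 3.14 and 2.77 at 5 h. These were 2.95-fold, 6.12-fold and 5.18-fold above the line's own resting level (adjusted p = 8.632e-06, 3.504e-09 and 2.075e-08), again with no overlap. Under normexp the CAT rises were 3.58, 4.70 and 5.15 on the log2 scale, so the fold bounds hold only for the main scale.

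After LPS the Ptgs2 levels of the lines came close to each other. In order of mean level the groups ran CAT 5 h (3.62), Tbc1d23 3 h (3.35), CAT 3 h (3.14), Tbc1d23 5 h (3.11), Tbc1d23 1 h (2.30), CAT 1 h (1.87), Tbc1d23 0 h (0.74) and CAT 0 h (-5.84). Neighbours overlapped among the first 4 groups and between the 1 h groups. At 3 h the lines did not pass the test (log2 difference 0.21, adjusted p = 0.317; within the shared run -0.07). At 1 h the Tbc1d23 line was 0.43 higher (adjusted p = 0.0477), with overlapping ranges, but within the shared run the difference was 0.16 (adjusted p = 0.514) and the call held in 5 of 23 alternatives. It was lost without any 1 of CAT 1 h replicates 1 or 2, or Tbc1d23 1 h replicates 1 or 2, and its value over the alternatives was 0.16 to 0.56. At 5 h the Tbc1d23 line was lower by 0.51 on the log2 scale (difference -0.51, adjusted p = 0.0181; within the shared run -0.85, adjusted p = 0.00313). The 5 h call held in 14 of 23 alternatives and was lost without Tbc1d23 5 h replicate 3 (-0.33, adjusted p = 0.114) or CAT 5 h replicate 3 (-0.44, adjusted p = 0.0693).

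Ptgs1 encodes COX-1, the constitutive cyclooxygenase, and its probe lies at chr2:36105892-36105951 (mm9). It went down with LPS in the CAT line and stayed high in the Tbc1d23 line. CAT arrays read 1.62, 2.29 and 2.40 at 0 h, 2.24, 2.25 and 2.00 at 1 h, 1.59, 1.59 and 1.24 at 3 h, and -0.24, -0.29 and -0.43 at 5 h. Tbc1d23 arrays read 3.89, 4.11 and 3.90 at 0 h, 3.64, 4.0 and 3.70 at 1 h, 4.05, 4.10 and 4.35 at 3 h, and 3.81, 4.56 and 4.22 at 5 h. All Tbc1d23 arrays stood above all CAT arrays. The difference was 3.65-fold at 0 h (log2 1.87, SE 0.20, adjusted p = 3.584e-07), 3.07-fold at 1 h, 6.48-fold at 3 h and 22.8-fold at 5 h (log2 4.51, adjusted p = 8.994e-13). The log2 differences within the shared run were 1.80, 1.54, 2.88 and 4.54.

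The fall of Ptgs1 in the CAT line was 5.34-fold at 5 h (log2 -2.42, adjusted p = 6.375e-09). At 3 h it was 1.55-fold (log2 -0.63, adjusted p = 0.0168). The 3 h call was lost without CAT 0 h replicate 2 (-0.54, adjusted p = 0.0778), CAT 0 h replicate 3 (-0.48, adjusted p = 0.101) or CAT 3 h replicate 3 (-0.51, adjusted p = 0.0836), and when slides 2 or 3 of the line were left out whole (-0.60 and -0.36). The 3 h call of the CAT line was also lost with median centring and with only the compared groups fitted. Ptgs1 in the Tbc1d23 line did not pass the test at any time (0.20 at 3 h).

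Ptges encodes the microsomal prostaglandin E synthase that is known to act with COX-2, and its probe lies at chr2:30747838-30747897 (mm9). It was low in resting CAT cells (-3.88, -3.35 and -3.89) and at 1 h (-2.84, -3.22 and -2.94). It then stood at 0.02, -0.12 and -0.45 at 3 h and at 0.43, 0.42 and 0.40 at 5 h. Those levels were 11.5-fold and 17.4-fold above rest (log2 3.52 and 4.12, SE 0.25, adjusted p = 1.442e-09 and 1.09e-10), and under normexp 1.52 and 1.96 on the log2 scale. The change at 1 h was 0.70 (adjusted p = 0.124). With the replicate block within a line, in which arrays of 1 slide are paired, the 1 h change passed (adjusted p = 0.034).

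Ptges in the Tbc1d23 line began higher and moved less. It read -1.75, -1.98 and -1.64 at 0 h, -1.89, -1.78 and -0.56 at 1 h, -0.76, -0.75 and -0.55 at 3 h, and -0.58, -0.68 and -0.38 at 5 h. Replicate 3 stood apart at 1 h. Ptges rose 2.15-fold at 3 h (log2 1.1, adjusted p = 0.00929) and 2.37-fold at 5 h (log2 1.24, adjusted p = 0.00366). Within the shared run, with 1 Tbc1d23 slide, these were 1.09 (adjusted p = 0.101) and 1.27 (adjusted p = 0.0618). The 3 h call was also lost without the slide of Tbc1d23 replicate 1 (1.16) or 2 (1.04), and the 5 h call without that of replicate 2 (1.22). The rises were 0.65 and 0.78 under normexp, and 1.68 at 3 h with median centring.

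Between the lines Ptges therefore crossed over. The Tbc1d23 line was 3.77-fold higher at 0 h (log2 1.92, adjusted p = 5.723e-06; within the shared run 2.06) and 3.01-fold higher at 1 h (log2 1.59, adjusted p = 4.866e-05; within the run 2.44). Under normexp these were 0.50 (adjusted p = 0.0158) and 0.69. At 3 h the difference was -0.50 (adjusted p = 0.105; within the run -0.37) and passed when the slide of Tbc1d23 replicate 3 was left out (-0.57, adjusted p = 0.011). At 5 h the Tbc1d23 line was 1.95-fold lower (log2 -0.96, adjusted p = 0.00343; within the run -0.79, adjusted p = 0.0235; with the run as a block -0.64).

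Ptges2 encodes a second membrane-associated prostaglandin E synthase. It was lower in the Tbc1d23 line at all 4 times, by 1.73-fold at 0 h (log2 -0.79, SE 0.11, adjusted p = 1.806e-05), 1.44-fold at 1 h, 1.32-fold at 3 h and 1.31-fold at 5 h (adjusted p = 0.00782). Unexposed CAT arrays read 2.24, 2.11 and 1.95 and unexposed Tbc1d23 arrays 1.32, 1.39 and 1.22. The log2 differences within the shared run were -0.88, -0.65, -0.59 and -0.46, and the last did not pass (adjusted p = 0.0562). With median centring they were -1.35 at 0 h and -0.65 at 5 h (adjusted p = 0.128). The 5 h call was also lost without CAT 5 h replicate 1 (-0.28, adjusted p = 0.0579). LPS lowered Ptges2 in the CAT line by 1.48-fold at 3 h and 1.58-fold at 5 h (log2 -0.57 and -0.66, adjusted p = 0.000589 and 0.000101). Neither fall passed with median centring (adjusted p = 0.302 and 0.157). In the Tbc1d23 line the 5 h change was -0.26, which passed with slides paired as a replicate block (adjusted p = 0.00801), as did the CAT change at 1 h, -0.31 (adjusted p = 0.00212).

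Ptges3 encodes p23, the cytosolic prostaglandin E synthase that is also a co-chaperone of Hsp90. By its main probe it did not pass the test between the lines at any time (log2 differences 0.22, 0.18, -0.04 and 0.02). Under normexp the 0 h difference passed (0.35, adjusted p = 0.0158). CAT arrays read 4.63, 4.72 and 4.87 at 0 h and 5.29, 5.24 and 5.35 at 5 h, a rise of 1.47-fold (log2 0.55, adjusted p = 0.00121). At 3 h the rise was 1.38-fold (log2 0.47, adjusted p = 0.0056; with quantile normalization 0.31), a call lost without the slide of CAT replicate 1 (0.34) or 2 (0.45). Neither rise passed with median centring (adjusted p = 0.355 at 5 h). The 5 h change of the Tbc1d23 line was 0.35 (adjusted p = 0.117), which passed with the replicate block (adjusted p = 0.00773). The other Ptges3 probe went further, with a 5 h rise of 0.47 in the Tbc1d23 line (adjusted p = 0.0243) and lower Tbc1d23 levels at 3 h (-0.44) and 5 h (-0.41), so the probes disagreed.

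Hpgds encodes the hematopoietic prostaglandin D synthase. CAT arrays read 0.96, 1.11 and 1.06 at 0 h, 0.88, 0.89 and 1.07 at 1 h, -0.39, -0.29 and -0.18 at 3 h, and -2.52, -2.64 and -2.28 at 5 h. The fall was 2.52-fold at 3 h (log2 -1.33, adjusted p = 4.515e-07) and 11.5-fold at 5 h (log2 -3.53, SE 0.14, adjusted p = 3.564e-13; under normexp -2.21). Tbc1d23 arrays read 1.33, 1.36 and 1.15 at 0 h, 1.73, 1.34 and 1.25 at 1 h, 0.89, 0.98 and 0.75 at 3 h, and 0.38, -0.15 and 0.30 at 5 h. That fall was 2.15-fold at 5 h (log2 -1.10, adjusted p = 4.332e-05), and within the shared run it was -0.85. The call held in 19 of 22 alternatives. It was lost within that run, with median centring and with only the compared groups fitted. The 3 h change, -0.41, passed with slides paired as a replicate block (adjusted p = 0.0344).

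At rest the Hpgds levels did not pass the test between the lines (0.24, adjusted p = 0.199), although the 3 Tbc1d23 arrays stood above the 3 CAT arrays. The Tbc1d23 line was higher at 3 h by 2.24-fold (log2 1.16, adjusted p = 2.133e-06; within the shared run 1.04) and at 5 h by 6.31-fold (log2 2.66, adjusted p = 2.103e-11; within the run 2.78, under normexp 1.51). At 1 h the difference was 0.49 (adjusted p = 0.00932). That call held in 18 of 24 alternatives, and the difference within the run was 0.31. Among the settings that lost it were that run, median centring and fitting only the compared groups. It was also lost without Tbc1d23 1 h replicate 1 (0.35, adjusted p = 0.0689) and without the slide of CAT replicate 2 (0.47, adjusted p = 0.0517).

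Tbxas1 encodes thromboxane A synthase. It was lower in the Tbc1d23 line at every time and did not pass the test for an LPS response in either line. At 0 h CAT arrays read -1.36, -1.04 and -0.99 and Tbc1d23 arrays -2.45, -2.76 and -2.41. At 5 h they read -0.66, -1.03 and -0.79 and -2.67, -3.07 and -2.57. The groups did not overlap at any time, with 2.65-fold lower levels at 0 h (log2 -1.41, SE 0.22, adjusted p = 4.504e-05), 3.27-fold at 1 h, 3.15-fold at 3 h and 3.84-fold at 5 h (log2 -1.94). In the shared run the log2 differences were -1.28, -1.34, -1.24 and -1.74, and under normexp -0.81, -1.0, -0.90 and -1.08. The second Tbxas1 probe gave -1.18 at 0 h (adjusted p = 0.0631) and passed at the later times.

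Pla2g4a encodes the cytosolic phospholipase A2 that starts the pathway. It was somewhat higher in the Tbc1d23 line, by 1.33-fold at 0 h (log2 0.41, adjusted p = 0.00561), 1.40-fold at 1 h, 1.91-fold at 3 h (log2 0.93, SE 0.11, adjusted p = 1.15e-06) and 1.58-fold at 5 h. Within the shared run the log2 differences were 0.53, 0.53, 1.05 and 0.73. The 5 h difference was 0.40 (adjusted p = 0.392) with median centring. At 0 h the CAT arrays read 3.74, 3.59 and 3.75 and the Tbc1d23 arrays 3.90, 4.18 and 4.22. The resting difference turned to -0.15 (adjusted p = 0.764) when arrays were centred on their median, a scaling that moved the median of all genes from 0.09 to -0.46, and the second probe gave 0.27 (adjusted p = 0.0746). It also missed the threshold with quantile normalization (0.26, adjusted p = 0.0823), with the deposited values (0.27, adjusted p = 0.0811) and with only the compared groups fitted (adjusted p = 0.0723). In the CAT line LPS lowered Pla2g4a by 1.68-fold at 3 h (arrays 2.97, 2.78 and 3.07, adjusted p = 2.051e-05) and 1.48-fold at 5 h (adjusted p = 0.000318). Neither fall passed with median centring (adjusted p = 0.151 and 0.266). In the Tbc1d23 line the changes were -0.22 and -0.31, which passed with the replicate block within a line (adjusted p = 0.0171 and 0.00191), the latter also without Tbc1d23 0 h replicate 1 (-0.41, adjusted p = 0.0444).

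Alox5 encodes 5-lipoxygenase, the first enzyme of leukotriene synthesis. It was higher in the Tbc1d23 line at all times, with no overlap. Unexposed CAT arrays read 4.14, 4.55 and 4.46 and unexposed Tbc1d23 arrays 6.19, 6.40 and 6.45. The difference was 3.90-fold at 0 h (log2 1.96, SE 0.15, adjusted p = 7.967e-09), 3.66-fold at 1 h, 4.4-fold at 3 h and 6.20-fold at 5 h (log2 2.63, adjusted p = 6.293e-11). Within the shared run the log2 differences were 2.06, 2.00, 2.37 and 2.76, and the other 2 Alox5 probes gave 2.13 and 1.52 at 0 h. In the CAT line Alox5 stood at 3.33, 3.54 and 3.54 at 5 h, a fall of 1.88-fold (log2 -0.91, adjusted p = 7.225e-05). At 3 h the CAT change was -0.28 (adjusted p = 0.194), which passed with quantile normalization (-0.45, adjusted p = 0.00252), with the mean of its probes (-0.40, adjusted p = 0.00111) and without the slide of CAT replicate 1 (-0.50, adjusted p = 0.0491). The Tbc1d23 line read 5.94, 6.14 and 6.22 at 5 h, a change of -0.24 that did not pass.

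Alox5ap encodes the membrane protein that presents arachidonic acid to 5-lipoxygenase, and it ran the opposite way between the lines. Unexposed CAT arrays read 5.13, 5.39 and 5.38 and unexposed Tbc1d23 arrays 4.51, 4.53 and 4.62. The Tbc1d23 line was 1.68-fold lower at 0 h (log2 -0.75, SE 0.15, adjusted p = 0.000414), 1.85-fold lower at 1 h and 1.54-fold lower at 3 h. Within the shared run the log2 differences were -0.68 (adjusted p = 0.0537), -0.79 (adjusted p = 0.0301) and -0.55 (adjusted p = 0.0974). With median centring the 0 h difference was -1.30. At 5 h CAT arrays had come down to 4.72, 4.32 and 4.33, a fall of 1.79-fold (log2 -0.84, adjusted p = 0.000106), and overlapped the Tbc1d23 arrays at 4.19, 4.24 and 4.55 (difference -0.13, adjusted p = 0.489). The CAT fall at 5 h did not pass with median centring (adjusted p = 0.0638). At 3 h the CAT change was -0.24 (adjusted p = 0.26), which passed with quantile normalization (-0.41, adjusted p = 0.00491) and without the slide of CAT replicate 1 (-0.43, adjusted p = 0.016).

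**Figure D2:**
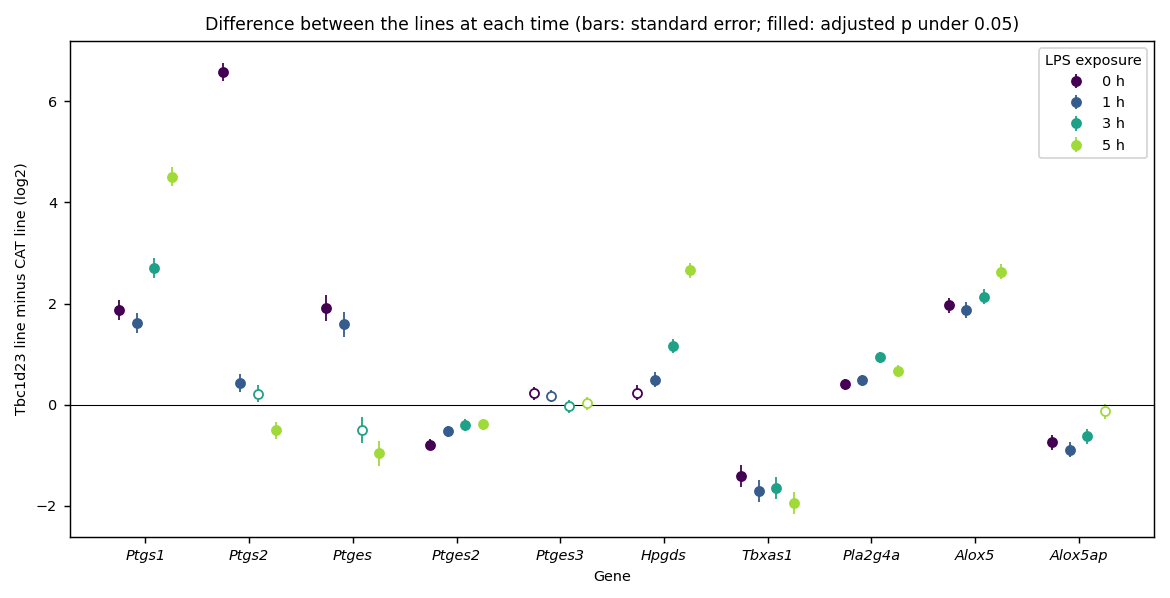
Difference in log2 level between the lines (Tbc1d23 minus CAT, vertical axis) for each gene at 0, 1, 3 and 5 h of LPS. Bars are standard errors from limma and filled points have an adjusted p under 0.05. Ptgs2 stands at 6.58 at 0 h and near 0 after LPS, while Ptgs1 and Hpgds reach 4.51 and 2.66 at 5 h.

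Counted over the 10 genes, 9 differed between the lines at 1 h (6 higher and 3 lower in the Tbc1d23 line), where 45.8% of all gene names did (24.7% higher, 21.1% lower). At 3 h 7 differed (4 higher, 3 lower), against 51.0% of all gene names (27.3% and 23.7%). At 5 h 8 differed (4 higher, 4 lower), against 53.5% (30.2% and 23.4%). The median log2 differences of the 10 genes at 0, 1, 3 and 5 h were 0.32, 0.46, 0.09 and -0.05, beside 0.09, 0.06, 0.05 and 0.10 over all gene names. With arrays centred on their median in place of the 75th percentile, the counts higher and lower were 4 and 3 (0 h), 3 and 2 (1 h), 4 and 1 (3 h) and 3 and 2 (5 h). Here and below, shares of all gene names are given for the main fit only. Counts under an alternative cannot be set against them.

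For the LPS response in the CAT line, 1 of 10 genes passed at 1 h, Ptgs2, against 7.55% of all gene names (3.66% up, 3.90% down). At 3 h 7 passed (3 up, 4 down), against 34.9% (16.2% and 18.7%). At 5 h 9 passed (3 up, 6 down), against 41.7% (18.4% and 23.2%). Tbxas1 was the gene that did not pass at 5 h. The medians were 0.03, -0.26 and -0.61, beside -0.10, -0.02 and 0.01 over all gene names. With median centring 2 passed upward and 1 downward at 3 h, and 2 upward and 3 downward at 5 h. The calls lost were those of Ptges3, Ptgs1, Ptges2 and Pla2g4a at 3 h. At 5 h they were those of Ptges3, Ptges2, Pla2g4a and Alox5ap. The 1 h count was 3 with the replicate block within a line.

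In the main fit, which does not pair arrays by slide, fewer gene names of any kind passed in the Tbc1d23 line. At 1 h 1 of the 10 genes passed, again Ptgs2, against 1.68% of all gene names (0.835% up, 0.841% down). At 3 h 2 passed, Ptgs2 and Ptges, both upward, against 6.80% (3.44% and 3.36%). At 5 h 3 passed, Ptgs2 and Ptges upward and Hpgds downward, against 6.35% (3.04% and 3.31%). The medians were -0.04, -0.11 and -0.23, beside -0.09, -0.05 and -0.02 over all gene names. The counts at 3 and 5 h were 4 and 6 with the replicate block within a line, which pairs arrays by slide. The 5 h split was then 3 upward and 3 downward, beside 3 and 6 in the CAT line. For these 10 genes the gap in counts between the lines at 5 h was thus smaller than in the main fit. Whether it also shrank over all gene names is not given here. The 5 h split was 2 upward and 0 downward with median centring, and 2 and 2 under normexp.

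**Figure D3:**
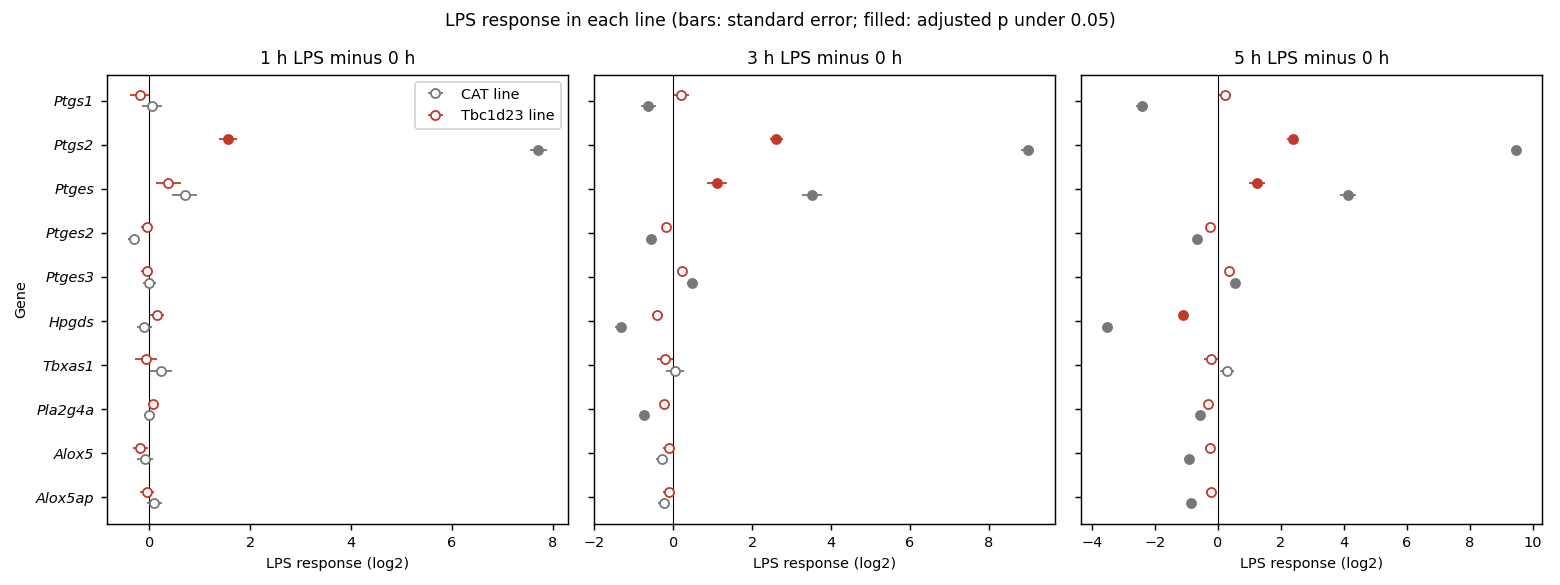
LPS response (log2 level at 1, 3 or 5 h minus 0 h, horizontal axis) of each gene in the CAT line (grey) and the Tbc1d23 line (red). Bars are standard errors and filled points have an adjusted p under 0.05. At 5 h Ptgs2 stands at 9.46 in the CAT line and 2.37 in the Tbc1d23 line, and Hpgds at -3.53 and -1.10.

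The difference between the responses was tested as an interaction. It uses the same 0 h arrays as the resting comparison and all 3 times share them, so the values at the 3 times are not independent of each other or of the resting difference. At 1 h 1 gene differed, Ptgs2, against 2.39% of all gene names (0.623% higher, 1.77% lower). At 3 h 5 differed (3 with a higher and 2 with a lower change in the Tbc1d23 line), against 16.7% (8.24% and 8.47%). At 5 h 6 differed (4 higher, 2 lower), against 23.3% (12.7% and 10.6%). The medians were -0.12, 0.15 and 0.33, beside 0.00, -0.03 and -0.01 over all gene names. With median centring the split at 3 h was 1 higher and 2 lower, and at 5 h 2 and 2.

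The rise of Ptgs2 was smaller in the Tbc1d23 line by at least 30.2-fold at 1 h, 35.1-fold at 3 h and 57.8-fold at 5 h, with the resting CAT level set at its bound (measured log2 differences -6.15, -6.37 and -7.09, adjusted p = 2.499e-11, 1.247e-12 and 1.499e-13). Under normexp the measured differences were -2.14, -2.26 and -3.02. The rise of Ptges was smaller by 5.35-fold at 3 h (log2 -2.42, adjusted p = 5.822e-05) and 7.35-fold at 5 h (log2 -2.88, adjusted p = 5.285e-06), and under normexp -0.88 and -1.17. For Ptgs1 the 5 h change was 6.25-fold higher in the Tbc1d23 line (log2 2.64, adjusted p = 6.639e-07). It fell in the CAT line, while its change in the Tbc1d23 line did not pass. Hpgds fell less, by 1.90-fold at 3 h (log2 0.92, adjusted p = 0.00305) and 5.36-fold at 5 h (log2 2.42, adjusted p = 3.773e-08). These were 1.51 at 3 h with median centring and 1.26 at 5 h under normexp.

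The smaller interactions were less stable. That of Ptgs1 at 3 h (0.83, adjusted p = 0.0481) held in 12 of 31 alternatives, with values from 0.56 to 1.41. It was lost without any 1 of CAT 0 h replicates 2 or 3, Tbc1d23 0 h replicates 1 or 3, or any array of either 3 h group. That of Pla2g4a at 3 h (0.53, adjusted p = 0.0249) held in 17 of 31, with values from 0.43 to 1.11. It was lost without CAT 0 h replicates 1 or 3, CAT 3 h replicate 2, Tbc1d23 0 h replicate 1 or Tbc1d23 3 h replicate 3. That of Alox5 at 5 h (0.67, adjusted p = 0.031) held in 17 of 31, with values from 0.59 to 0.96. It was lost without CAT 0 h replicates 2 or 3, CAT 5 h replicate 1, Tbc1d23 0 h replicate 1 or Tbc1d23 5 h replicates 2 or 3. That of Alox5ap at 5 h (0.62, adjusted p = 0.0374) held in 14 of 31, with values from 0.51 to 0.91. It was lost without CAT 0 h replicates 2 or 3, CAT 5 h replicates 2 or 3, Tbc1d23 0 h replicates 1 or 2, or Tbc1d23 5 h replicate 3. Within the shared run these 4 were 1.08 (adjusted p = 0.124), 0.52 (0.221), 0.69 (0.203) and 0.78 (0.174). With slides paired as a replicate block, Ptges2 also differed at 3 h (0.39, adjusted p = 0.00294) and 5 h (0.40, adjusted p = 0.00168), and Pla2g4a at 5 h (0.26, adjusted p = 0.023). The 5 h value of Ptges2 also passed without CAT 5 h replicate 1 (0.51, adjusted p = 0.0276).

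A further 61 genes of the pathway were on the array and 42 were tested. At 0 h 10 were higher and 12 lower in the Tbc1d23 line, where 25.2% and 20.0% of all gene names were, and at 5 h 14 and 15 (30.2% and 23.4%). In the CAT line LPS raised 10 and lowered 13 by 5 h, against 18.4% and 23.2% of all gene names. In the Tbc1d23 line it raised 3 and lowered 2, against 3.04% and 3.31%. The genes named next were chosen after their values were seen. Of 13 phospholipases and arachidonate handling genes tested, 4 were higher and 4 lower at 0 h. Pla2g5, a secreted phospholipase A2, was 5.54-fold higher in the Tbc1d23 line at 0 h (log2 2.47, adjusted p = 2.114e-11; within the shared run 2.64). Of 13 other synthases, LPS raised 1 and lowered 6 in the CAT line by 5 h (18.4% and 23.2% of all gene names), among them Ltc4s, the leukotriene C4 synthase (log2 -1.23, adjusted p = 0.000135). Of 7 genes for transport and breakdown, 2 were higher and 1 lower at 0 h.

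Of the 9 receptors tested, 2 were higher and 3 lower in the Tbc1d23 line at 0 h, 2 and 5 at 1 h, 0 and 6 at 3 h, and 0 and 7 at 5 h. Over all gene names the shares higher and lower were 25.2% and 20.0% at 0 h and 24.7% and 21.1% at 1 h. At 3 h they were 27.3% and 23.7%, and at 5 h 30.2% and 23.4%. The receptors' median log2 difference was -0.93 at 0 h and -2.21 at 5 h, beside 0.09 and 0.10 over all gene names. Ptger2, a prostaglandin E2 receptor (EP2), was not above background on any CAT array at 0 h (mean -4.96) and rose at least 129-fold by 3 h and 72.1-fold by 5 h. In the Tbc1d23 line it was at -2.90 at 0 h, at least 3.26-fold above CAT (measured log2 difference 2.06, within the shared run 2.18), and rose 8.82-fold by 3 h and 4.80-fold by 5 h. The rise was smaller in the Tbc1d23 line by at least 14.66-fold and 15.01-fold, with the resting CAT level at its bound (measured log2 interactions -4.23 and -4.26, adjusted p = 3.93e-10 and 2.076e-10). Ptger4, another prostaglandin E2 receptor (EP4), was lower in the Tbc1d23 line at all times (log2 -1.95, -3.93, -2.82 and -2.74, within the shared run -2.14, -3.74, -2.84 and -3.23). It rose 3.98-fold in 1 h in the CAT line (adjusted p = 2.352e-06), beside a change of 0.01 in the Tbc1d23 line (interaction -1.98, adjusted p = 0.000544; within the run -1.60, adjusted p = 0.0461). Cysltr1, a receptor for cysteinyl leukotrienes, was also lower at all times (log2 -2.78 at 0 h and -2.69 at 5 h, within the run -2.56 and -2.11). Ptgir, the prostacyclin receptor, was 1.62 higher at 1 h on the log2 scale and lower at 5 h (-1.30), with 1.88 and -1.16 within the run.

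Hpgd encodes 15-hydroxyprostaglandin dehydrogenase, which inactivates prostaglandins. It was 11.9-fold lower in the Tbc1d23 line at 0 h, where 2 of 3 arrays were above background (means -3.20 and 0.38, log2 -3.57, adjusted p = 3.864e-08; within the shared run -3.38). In the CAT line it was not above background on any array at 3 or 5 h, a fall of at least 26.6-fold and 27.7-fold. Within the shared run, with 1 Tbc1d23 slide, the measured Hpgd changes in the Tbc1d23 line were log2 -2.62 at 3 h and -2.33 at 5 h. The measured log2 difference between the lines there was -1.07 at 3 h and 0.28 at 5 h. Each Tbc1d23 level in that run is 1 array, so these are given as sizes only.

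**Figure D4:**
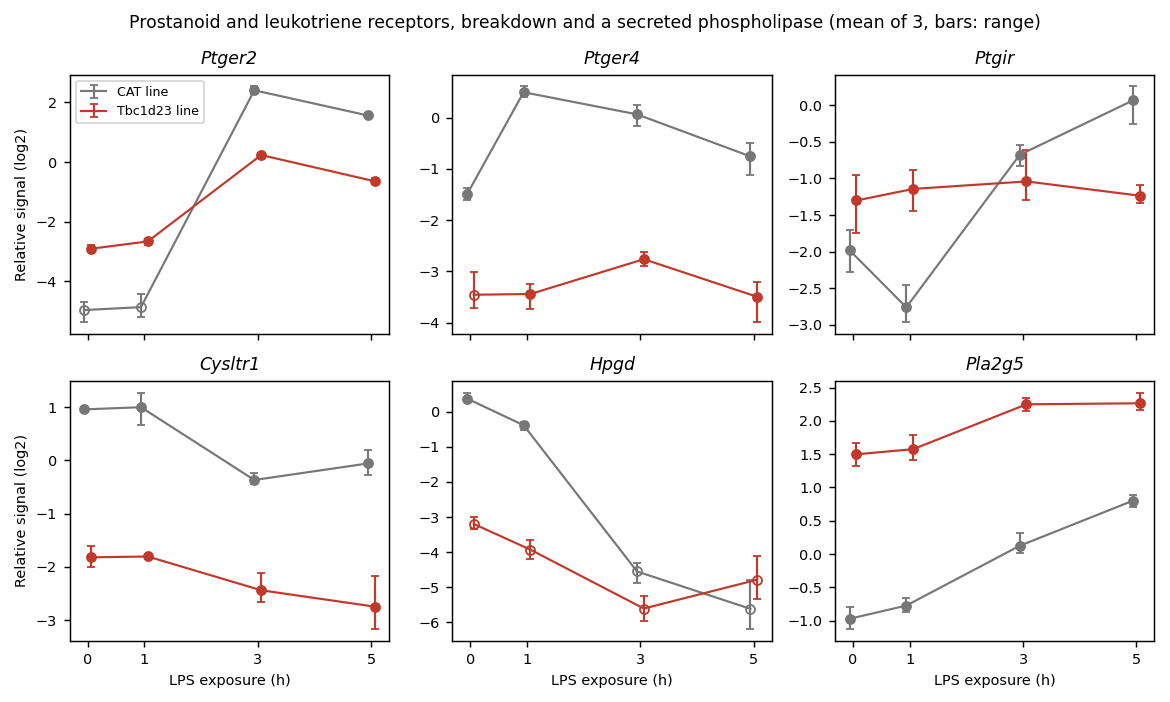
Mean level (log2 signal relative to the 75th percentile of the array) of 4 receptors, of Hpgd and of Pla2g5 against hours of LPS exposure in the CAT line (grey) and the Tbc1d23 line (red). Bars span the 3 arrays and open circles mark groups in which fewer than 3 arrays were well above background. Ptger2 and Hpgd move in opposite directions in the CAT line, from -4.96 to 2.41 and from 0.38 to -4.55 between 0 and 3 h.

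Over the 8 group means, which share slides and the LPS time course, some of the genes varied together. Ptges correlated with Ptges3 at 0.94 and with Ptgs2 at 0.81, Ptgs1 with Alox5 at 0.96, and Ptges2 with Alox5ap at 0.90. Ptgs1 and Tbxas1 ran opposite (-0.91). Ptgs1 and Ptgs2 did not correlate over the group means (0.02), although within the CAT line Ptgs1 fell (2.10 to -0.32) while Ptgs2 rose. All correlations with Ptgs2 include its CAT 0 h mean (-5.84), which lay far below the other groups and was not above background on any array. Among 5937 other gene names that varied and were above background in at least 4 groups, those most like Ptgs2 were Ccl4 (0.983), a chemokine, Srgn (0.976), a secretory granule proteoglycan, and Cldn12 (0.951). Those most like Ptges were Dcstamp (0.993), Tm2d1 (0.989) and Rrp9 (0.985), and those most like Ptgs1 were Pitpnc1 (0.996), Ica1 (0.995) and Hs2st1 (0.994). These correlations describe 8 points and carry no test.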

How the data were processed

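Expression was measured on 24 one-colour Agilent arrays, read as spot intensities that the authors deposited as scanner output, per the file headers of Agilent's Feature Extraction software, version 10.7.1.1. The submitters' processing notes also name RMA and Partek. The authors deposited a table of log2 values as well, whose centring no label or header states, and it served as an alternative. From the processed signal intensity, log2 values minus each array's 75th percentile were computed, leaving out control spots and outlier flags (0.113% to 0.406% of spots). No spot was saturated. Spots of a probe were averaged, a probe passed if some group had all 3 of its arrays well above background, and the brightest passing probe stood for a gene. Where a group had no array above background, a fold is a bound against the lowest signal above background. The bound is approximate, since a probe flagged as not above background can read higher than that signal. limma 3.58.1 in R 4.3.3 fitted the 8 group means, with Benjamini-Hochberg adjustment within each of 13 contrasts and a threshold of 0.05. The fit was also run on simulated arrays with known shifts, drawn as independent of each other. The real arrays correlated within a slide (estimate 0.571), so the simulation does not check error rates for them. With 3 arrays against 3, an exact permutation test cannot go below 0.1, so none was used. The number of arrays limits the precision.

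The named genes are the 10 members, pathway genes from lists by role, and the 3 gene names most like a member. The members and lists were chosen with earlier results of these data known. Replicate numbers pair samples within a line, where a number is a slide: deviations of same-numbered arrays correlated at 0.186 to 0.688 in the CAT line and 0.521 to 0.826 in the Tbc1d23 line. Across lines they correlated at -0.43 to 0.03 and do not pair. Alternatives covered scaling, background correction, the filter, the probe rule, slide and run blocks, the samples fitted and leaving out arrays. Probe positions are in mm9 per the file headers.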

Additional observations from a re-analysis of the deposited data

Results flagged for a closer look

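Among the 10 genes, 12 differences between the lines in their response to LPS passed the test of that difference (limma interaction, Tbc1d23 minus CAT, log2 scale). They rest on the shared 0 h arrays, and their causes were not tested. The measured response of Ptgs2 differed by -6.15 at 1 h, -6.37 at 3 h and -7.09 at 5 h. Ptgs2 was not above background on any CAT array at 0 h, and with that level at its bound the differences are at least as large as -4.92, -5.13 and -5.85. The response of Ptges differed by -2.42 at 3 h and -2.88 at 5 h. The response of Ptgs1 differed by 0.83 at 3 h and 2.64 at 5 h, and that of Hpgds by 0.92 at 3 h and 2.42 at 5 h. The remaining differences were 0.53 for Pla2g4a at 3 h, 0.67 for Alox5 at 5 h and 0.62 for Alox5ap at 5 h. Groups of 3 are too small for a test of single outlying arrays.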

How the results depend on the processing

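The resting difference in Ptgs2 passed under every alternative run, with log2 values of 6.03 with median scaling, 6.32 with quantile normalization and 2.55 with the repaired background correction, which was chosen after seeing the data, and 6.52 to 6.64 when arrays were left out. Plain normexp background correction was planned but not run, because it could not be fitted usably on 6 of 24 arrays. The counts of the 10 genes called moved as follows. The share of all gene names called under each alternative is not given, so the counts show only how these genes moved. Median scaling gave 5 for the line difference at 1 h and 5 at 5 h, 3 and 5 for the CAT response at 3 and 5 h, and 3 for the difference in response at 3 h. The last count was also 3 with no filter and with only the compared groups fitted. Requiring every array above background removed Ptgs2 from the test, which gave 0 for both 1 h responses and their difference, and 1 for the Tbc1d23 response at 3 h. Slides as a random block, and the replicate block within a line (pairing by slide), each gave 3 for the CAT response at 1 h, and 4 and 6 for the Tbc1d23 response at 3 and 5 h. The replicate block by the number the lines share, which does not pair them, gave 2 for the CAT response at 1 h, and a block for the slide run gave 3. The run that holds both lines gave 2 for that count, 1 and 1 for the Tbc1d23 response at 3 and 5 h, and 3 for the difference in response at 3 h. Leaving out arrays gave line counts of 8 at 0 h, 7 to 9 at 1 h, 7 to 9 at 3 h and 7 to 8 at 5 h, CAT response counts of 1, 5 to 8 and 9, Tbc1d23 response counts of 1, 1 to 2 and 2 to 4, and difference counts of 1, 3 to 5 and 4 to 6. Of the single gene values, the Pla2g4a difference at 0 h reversed to -0.15 with median scaling. Besides it, 60 calls were lost and 40 gained under the 13 other settings, and 76 lost and 6 gained over 30 ways of leaving out arrays. Beyond what each setting removes, the cause was not tested.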
